A study of Mus musculus with 6 samples.

Results

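The matrix metalloproteinases described here are 10 genes of mouse chondrocytes inflamed with interleukin-1 beta (IL-1β): Mmp2, Mmp3, Mmp9, Mmp10, Mmp11, Mmp12, Mmp13, Mmp14, Mmp16 and Mmp19. They were taken by gene symbol from a deposited table of 28812 genes, in which each was found, and all 10 passed the filter on low counts. Wild-type chondrocytes that received IL-1β and mitochondria (n = 3 libraries) were compared with wild-type chondrocytes that received IL-1β and vehicle (n = 3 libraries). The labels give osteoarthritis (OA) as the disease state of all 6 samples, and the series title names osteocytes, the cells embedded in bone, as the source of the mitochondria. Poly(A) RNA was sequenced in paired ends. No library without IL-1β was analysed here, so how far IL-1β itself moved these genes is not known from these data. The labels used here give no dose, time, age or sex, and the origin of the replicates (animal, culture or dish) is not stated. The p-values below thus reflect the scatter among these libraries alone, which may be technical.

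Matrix metalloproteinases are zinc-dependent endopeptidases that cut collagens, proteoglycans and other proteins outside the cell. Most are secreted as inactive pro-enzymes and become active when the propeptide is cut off, and tissue inhibitors of metalloproteinases (Timps) block the active site. In cartilage, inflammatory cytokines such as IL-1β raise the stromelysins and the collagenases through AP-1 and NF-kB, and collagenase 3 (Mmp13) is the enzyme best known for cutting type II collagen in osteoarthritis. RNA levels do not show how much enzyme is secreted or active.

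Library totals were 63547854 to 66293786 deposited counts with mitochondria and 64646124 to 65131847 with vehicle. Low deposited counts pile up at 4, with 2.31 to 2.84 times as many genes as at 3 and 5 on average, so a fragment is taken as about 4 counts. Along principal component 1, with 43.0% of the variance in log2 CPM, the mitochondria libraries lay at -81.4, -27.4 and -34.7 and the vehicle libraries at 30.4, 56.8 and 56.4, so vehicle replicate 1 was the vehicle library nearest to the mitochondria libraries. In bulk RNA, fewer cells of a type and less RNA per cell cannot be told apart. Of the 14 chondrocyte markers, 2 were higher (Sox9 and Acan) and 3 lower (Sox6, Col11a1 and Hapln1) with mitochondria. Among all genes tested, 6.36% were higher and 8.46% lower. The summed level of the 14 markers was 1580 to 1793 CPM with mitochondria against 1941 to 2330 CPM with vehicle. Most of that sum was Col2a1 and Col11a1. The cartilage collagen Col2a1 was at 88.1 to 111 FPKM with mitochondria and 105 to 123 FPKM with vehicle. The same libraries held the fibrillar collagen Col1a1 at 687 to 831 FPKM with mitochondria and 717 to 838 FPKM with vehicle. The cartilage proteoglycan Acan was low in both groups, at 2.30 to 2.90 FPKM with mitochondria and 1.61 to 2.04 FPKM with vehicle. Type II collagen RNA was thus present, beside a higher level of type I collagen RNA, a collagen of bone and fibrous tissue.

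Chondrocytes given mitochondria had more RNA of 4 matrix metalloproteinases than chondrocytes given vehicle: stromelysins 1 and 2 (Mmp3 and Mmp10), the gelatinase Mmp9 and the elastase Mmp12. They had less of 2 membrane-type enzymes, Mmp14 and Mmp16. The other 4 members, the collagenase Mmp13, the gelatinase Mmp2, Mmp11 and Mmp19, did not pass the test. So 6 of 10 members (60.0%) were called, 4 higher and 2 lower, where 14.8% of the 17290 genes tested were called, 6.36% higher and 8.46% lower (edgeR quasi-likelihood test, Benjamini-Hochberg adjusted p under 0.05). The members were chosen with earlier results of these data known, so the larger share called among them is not evidence of its own. Of 8 further Mmp genes tested, 0 were higher and 1 was lower. The median log2 fold change of the 10 members was 0.12 and that of all genes tested was 0.003. Groups of CPM values did not overlap for 5 members in the higher direction (Mmp3, Mmp9, Mmp10, Mmp12 and Mmp19) and 2 in the lower direction (Mmp14 and Mmp16). Among all genes tested, the groups did not overlap for 40.7%, in the higher direction for 19.8% and in the lower direction for 20.9%.

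**Figure D1:**
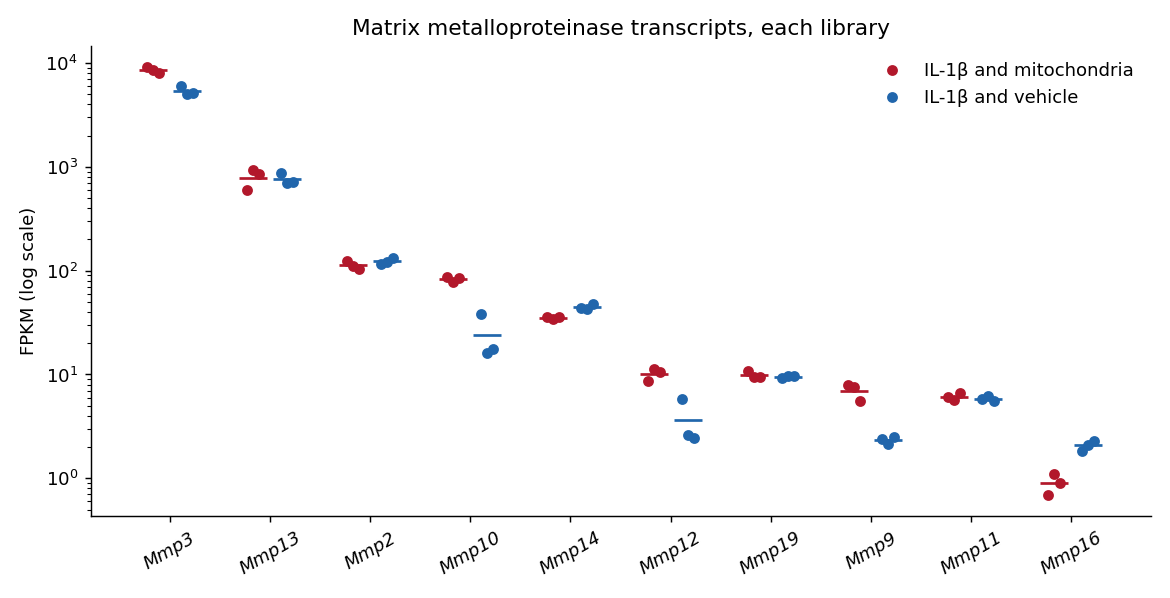
Each point is 1 library, with the authors' FPKM on a log10 axis, mitochondria (red) left of vehicle (blue) for each member, and bars at the group means. Mmp3 lies far above the other members in both groups, and Mmp9, Mmp10, Mmp12 and Mmp16 show the widest gaps between groups.

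Levels can be compared between genes in FPKM, which is scaled to transcript length. Mmp3 was at 8610 ± 518 FPKM with mitochondria and 5429 ± 563 FPKM with vehicle (SD, n = 3 each), the highest of the 10 members in both groups. Mmp13 came next, at 789.9 ± 174 FPKM with mitochondria and 762 ± 94.2 FPKM with vehicle. With mitochondria the order then ran through Mmp2 (113 FPKM), Mmp10 (83.4 FPKM), Mmp14 (35.1 FPKM), Mmp12 (10.1 FPKM), Mmp19 (9.88 FPKM), Mmp9 (6.98 FPKM), Mmp11 (6.11 FPKM) and Mmp16 (0.900 FPKM). Among these, the libraries of Mmp12 overlapped those of Mmp19, and the libraries of Mmp9 overlapped those of Mmp11. With vehicle it ran through Mmp2 (123 FPKM), Mmp14 (44.7 FPKM), Mmp10 (23.9 FPKM), Mmp19 (9.53 FPKM), Mmp11 (5.87 FPKM), Mmp12 (3.61 FPKM), Mmp9 (2.35 FPKM) and Mmp16 (2.08 FPKM). There the libraries of Mmp11 overlapped those of Mmp12, those of Mmp12 overlapped those of Mmp9, and those of Mmp9 overlapped those of Mmp16. Mmp10 therefore stood above Mmp14 with mitochondria and below it with vehicle, with no overlap between these genes' libraries in either group.

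Stromelysins 1 and 2 cut proteoglycans, fibronectin and other matrix proteins and also activate pro-collagenases. Stromelysin 1, Mmp3, had 18506, 17657 and 16275 CPM with mitochondria, against 11922, 9703 and 9912 CPM with vehicle. All 3 mitochondria libraries were above all 3 vehicle libraries, and vehicle replicate 1 was the highest of the vehicle libraries. The fold change was 1.66, or 0.73 ± 0.09 on the log2 scale (SE; 95% interval 0.52 to 0.95; edgeR adjusted p = 0.0047). In each mitochondria library Mmp3 had the highest FPKM of all genes in the table, at 9105, 8653 and 8072 FPKM. In each vehicle library that place was taken by Spp1, which encodes the bone matrix protein osteopontin, at 6778, 5655 and 5619 FPKM, and Mmp3 ranked 2, 3 and 2. Leaving out any 1 library kept the call, with log2 fold changes of 0.68 to 0.83. The call was lost with limma on unfiltered FPKM (log2 fold change 0.67, limma adjusted p = 0.23).

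Stromelysin 2, Mmp10, had 170.3, 151 and 164 CPM with mitochondria, against 71.3, 29.8 and 32.1 CPM with vehicle. Its groups did not overlap, but vehicle replicate 1 held more than the other vehicle libraries combined. The log2 fold change was 1.87 ± 0.30 (95% interval 1.17 to 2.56; edgeR adjusted p = 0.0085), a fold of 3.64, and without vehicle replicate 1 the log2 fold change was 2.38. By FPKM it ranked 530 among all genes with mitochondria and 1885 with vehicle. Mmp10 must be read with care because it resembles the far more abundant Mmp3: their transcripts share 140 exact words of 50 bases, 8.37% of all such words in Mmp10, and the longest stretch in common is 104 bases. Other pairs of members share no such word. Mmp10 was at 0.962%, 0.897% and 1.05% of the Mmp3 FPKM with mitochondria, against 0.626%, 0.321% and 0.339% with vehicle. How the counting divided fragments between Mmp3 and Mmp10 is not given in the sources used here, and its part in the Mmp10 result was not tested.

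The collagenase Mmp13 had 1793, 2808 and 2537 CPM with mitochondria, against 2535, 1996 and 2042 CPM with vehicle. The groups overlapped: mitochondria replicate 1 was the lowest of all 6 libraries, and the other mitochondria libraries were above all vehicle libraries, replicate 3 only just. The log2 fold change was 0.12 ± 0.16 (95% interval -0.25 to 0.49; edgeR adjusted p = 0.67), an interval that holds both a moderate fall and a moderate increase. The result depended on the correction for base composition. The Mmp13 transcript has a GC content of 41.7%, the lowest of the 10 members, and with GC-dependent offsets per library its log2 fold change was 0.60 (edgeR adjusted p = 0.0049). Under those offsets 19.1% of all genes tested were called, 9.57% higher and 9.56% lower, and 5 members were higher. Mmp13 ranked 43 by FPKM in both groups.

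Gelatinases cut denatured collagen and basement membrane collagen. Gelatinase B, Mmp9, had 31.4, 30.1 and 22.2 CPM with mitochondria, against 9.19, 8.12 and 9.57 CPM with vehicle. The lowest mitochondria library was more than double the highest vehicle library. The log2 fold change was 1.64 ± 0.16 (95% interval 1.27 to 2.003; edgeR adjusted p = 0.0031), a fold of 3.11, and Mmp9 passed the test under all 16 alternative settings. Gelatinase A, Mmp2, had 468, 421 and 395 CPM with mitochondria, against 427, 436 and 473 CPM with vehicle. These groups overlapped widely, and the log2 fold change was -0.06 ± 0.09 (95% interval -0.27 to 0.15; edgeR adjusted p = 0.72).

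The macrophage elastase Mmp12, which cuts elastin, had 70.0, 92.8 and 85.2 CPM with mitochondria, against 45.8, 20.04 and 18.8 CPM with vehicle. As for Mmp10, the groups did not overlap and vehicle replicate 1 was well above the other vehicle libraries. The log2 fold change was 1.55 ± 0.32 (95% interval 0.83 to 2.28; edgeR adjusted p = 0.017). The call was lost without mitochondria replicate 3 (edgeR adjusted p = 0.053), without vehicle replicate 2 (0.078) or without vehicle replicate 3 (0.073), and the log2 fold change was 2.09 without vehicle replicate 1. Mmp12 lies partly opposite Mmp1b, with 1261 bases in common on the other strand. Mmp1b was counted at 0.28 to 1.05 CPM with mitochondria and 0.37 to 0.90 CPM with vehicle, and the part of its reads in the Mmp12 result was not tested.

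Mmp9 and Mmp12 are also made by myeloid cells. The 12 macrophage markers summed to 75.0 to 89.4 CPM with mitochondria and 72.3 to 92.2 CPM with vehicle, and 0 of the 11 tested passed in either direction in edgeR (1 higher and 2 lower at an unadjusted p under 0.05, 1 higher and 1 lower with DESeq2). Among them the macrophage receptor Adgre1 was at 3.32 to 4.39 CPM with mitochondria and 0.877 to 3.47 CPM with vehicle, and the leukocyte marker Ptprc at 0.300 to 0.481 CPM with mitochondria and 0.639 to 2.06 CPM with vehicle. The 7 neutrophil markers summed to 4.42 to 6.08 CPM with mitochondria and 9.12 to 11.9 CPM with vehicle. Of these, Ly6g, Csf3r and Cxcr2 stayed under 1 CPM in all 6 libraries, and Ly6g was at 0 in all 3 mitochondria libraries. The 7 osteoclast markers found in the table summed to 81.8 to 85.6 CPM with mitochondria and 85.9 to 93.2 CPM with vehicle, with 4 of them (Ocstamp, Atp6v0d2, Calcr and Oscar) under 1 CPM throughout. Ctsk, the greater part of that sum, was lower, while Acp5 (2.51 to 4.16 CPM with mitochondria, 0.937 to 2.28 CPM with vehicle) and Nfatc1 (27.3 to 28.6 CPM with mitochondria, 20.1 to 24.7 CPM with vehicle) were above the vehicle range without passing (edgeR adjusted p = 0.14 and 0.12). The 4 endothelial markers summed to 2.26 to 4.64 CPM with mitochondria and 2.16 to 3.20 CPM with vehicle. Within the macrophage list Cd14 was above the vehicle range, at 30.6 to 36.2 CPM with mitochondria and 21.8 to 27.6 CPM with vehicle. Lyz2 was at 24.2 to 34.0 CPM with mitochondria and 33.1 to 47.3 CPM with vehicle. Cd14 and Lyz2 made up most of the macrophage sum, with estimates in opposite directions. Of the others tested, Adgre1, Cd68, Itgam and Tyrobp had positive estimates, and Csf1r, C1qa, C1qb, Mrc1 and Ptprc had negative ones. The part of these cells in the Mmp9 and Mmp12 results was not tested.

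Membrane-type enzymes sit on the cell surface, and Mmp14 (MT1-MMP) is the collagenase that activates pro-Mmp2 in a complex with Timp2. Mmp14 had 241, 230.4 and 236 CPM with mitochondria, against 282, 273 and 304 CPM with vehicle. Every mitochondria library was below every vehicle library. The difference was small, at -0.28 ± 0.08 on the log2 scale (95% interval -0.46 to -0.10; edgeR adjusted p = 0.049), and close to the threshold. The call was lost on leaving out any 1 library other than mitochondria replicate 1, with log2 fold changes of -0.32 to -0.24 over the 6 fits, and in 10 of 16 alternatives in all. With GC offsets the log2 fold change was -0.45 (edgeR adjusted p = 0.0058).

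Mmp16 (MT3-MMP), another activator of pro-Mmp2, had 6.81, 10.9 and 8.76 CPM with mitochondria, against 17.5, 19.4 and 21.3 CPM with vehicle. Its groups were well apart although its level was low, with 439 to 677 deposited counts in mitochondria libraries and 1140 to 1419 in vehicle libraries. The log2 fold change was -1.14 ± 0.18 (95% interval -1.56 to -0.72; edgeR adjusted p = 0.0083). The call held on leaving out any 1 library (-1.32 to -0.98), but came close to the threshold without vehicle replicate 3 (edgeR adjusted p = 0.049). Of the 6 synovial fibroblast markers, 4 (Thy1, Pdgfra, Cd55 and Htra4) were lower, the same direction as Mmp14 and Mmp16. Among all genes tested, 8.46% were lower. The marker list summed to 604 to 678 CPM with mitochondria against 836 to 947 CPM with vehicle. Clic5 of that list was under 1 CPM in every library. The part of these cells in the Mmp14 and Mmp16 results was not tested.

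Mmp11 (stromelysin 3), which differs from most secreted members in being activated inside the cell by furin, had 19.1, 17.8 and 20.5 CPM with mitochondria, against 17.6, 18.5 and 16.5 CPM with vehicle. Its log2 fold change was 0.13 ± 0.12 (95% interval -0.14 to 0.39; edgeR adjusted p = 0.51). Mmp19, a secreted enzyme with several basement membrane substrates, had 42.7, 37.6 and 37.7 CPM with mitochondria, against 35.7, 36.2 and 36.7 CPM with vehicle. Its groups did not overlap in CPM, yet the gap was narrow. In FPKM they overlapped, at 9.39 to 10.7 with mitochondria and 9.27 to 9.70 with vehicle. Mmp19 did not pass, with a log2 fold change of 0.12 ± 0.10 (95% interval -0.11 to 0.35, edgeR adjusted p = 0.46). Mmp11, Mmp16 and Mmp19 each overlap a gene on the other strand (Chchd10, Gm11860, and both Gm47093 and Tmem198b). Whether counting used strand is not given in the sources used here, so reads of these partners may be included.

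**Figure D2:**
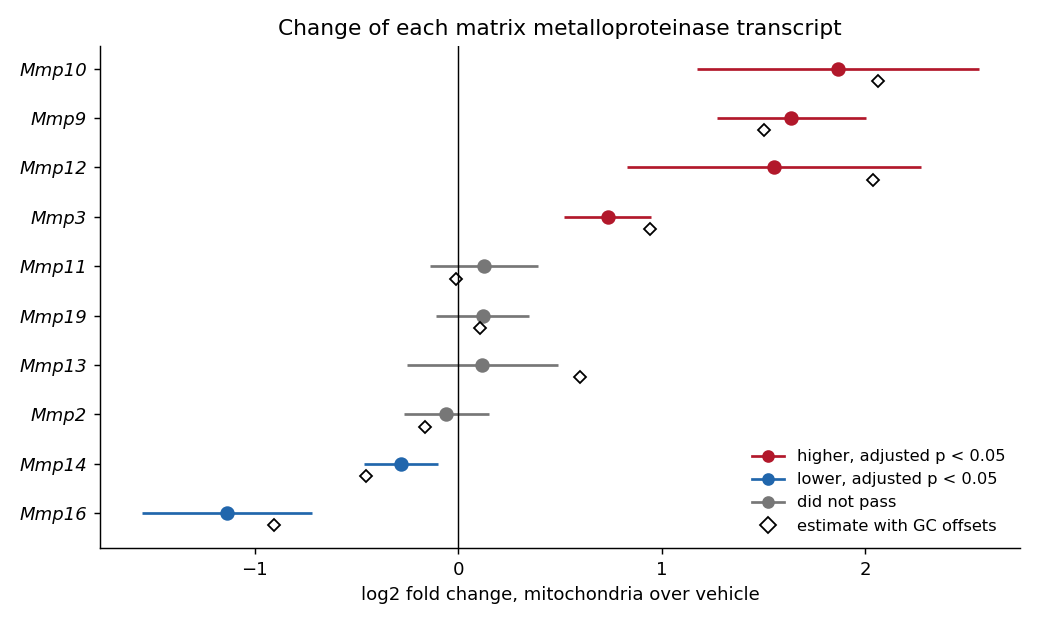
Log2 fold change of each member, mitochondria over vehicle, from edgeR, as a point with its 95% interval, coloured by call, and open diamonds for the estimates with GC offsets. Intervals of Mmp3, Mmp9, Mmp10 and Mmp12 lie above 0 and those of Mmp14 and Mmp16 below it, while those of Mmp2, Mmp11, Mmp13 and Mmp19 include 0, and the diamond of Mmp13 lies at 0.60, outside its interval.

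The members lie on 6 chromosomes (GRCm38, 1-based positions as the table gives them). Mmp13 (chr9:7272514-7283331), Mmp12 (chr9:7344381-7369499), Mmp3 (chr9:7445822-7455975) and Mmp10 (chr9:7502352-7510240) lie on the plus strand within a cluster of 8 listed Mmp genes that spans 308.9 kb of chromosome 9. Elsewhere are Mmp2 (chr8:92827291-92853420), Mmp9 (chr2:164940780-164955850), Mmp11 (chr10:75923222-75936496, minus strand), Mmp14 (chr14:54431612-54441265), Mmp16 (chr4:17852893-18117457) and Mmp19 (chr10:128790910-128800824). Of the 8 genes in the cluster, 3 rose (Mmp3, Mmp10 and Mmp12), Mmp13, Mmp8, Mmp1b and Mmp27 did not pass, and Mmp1a was too low to test. Genes that passed lay beside genes that did not pass or were not tested. Mmp12 lies between Mmp13 and Mmp1b, and Mmp10 between the untested Mmp1a and Mmp8. Mmp1b, Mmp8 and Mmp27 were low, with wide intervals, so their not passing does not show an absence of change.

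**Figure D3:**
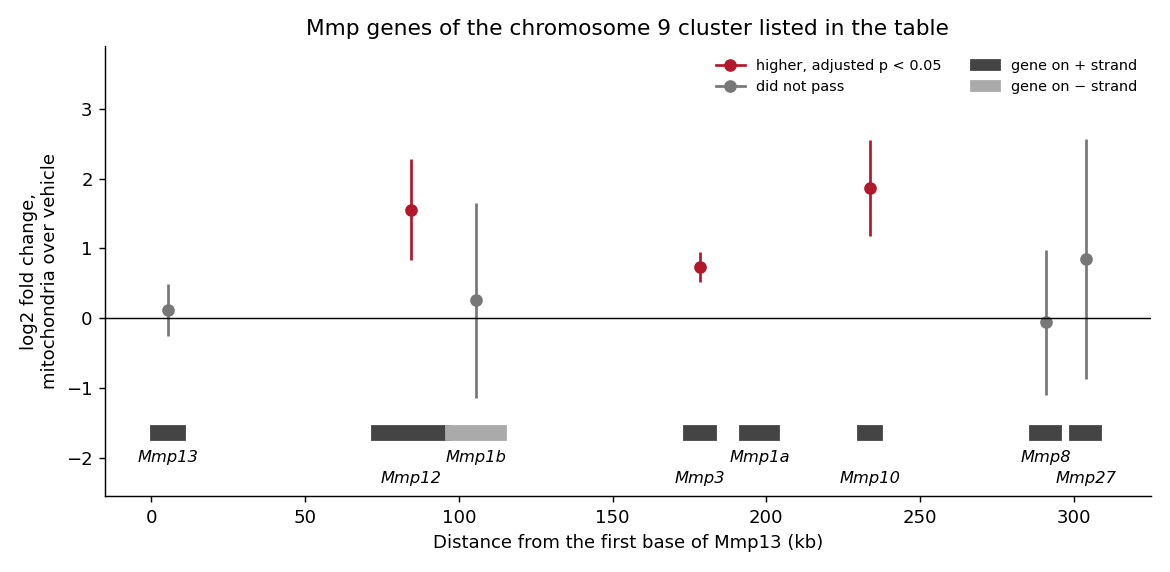
Log2 fold change, mitochondria over vehicle, with its 95% interval for each tested Mmp gene of the chromosome 9 cluster, placed by distance from the first base of Mmp13 in kb, with the genes drawn as boxes shaded by strand. Mmp12, Mmp3 and Mmp10 (red) passed the test, Mmp13, Mmp1b, Mmp8 and Mmp27 (grey) did not, and Mmp1a has a box only because it was not tested.

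The promoters of the 4 cluster members are printed because they differ in the cytokine-response elements for which stromelysin and collagenase promoters are known. Each line is the 250 bases before the RefSeq start of the gene (RefSeq, GRCm38.p6, plus strand, 5′ to 3′). Capitals mark exact matches to the AP-1 site with the letters TGANTCA, to a TATA box with the letters TATAAA, to the Ets site PEA3 with the letters AGGAAG, and to the RUNX site with the letters TGTGGT. The TATA box was searched on the printed strand and the others on both, and no match overlaps another. The NF-kB motif was searched on both strands and is not in capitals.
Mmp3 (chr9:7445572-7445821): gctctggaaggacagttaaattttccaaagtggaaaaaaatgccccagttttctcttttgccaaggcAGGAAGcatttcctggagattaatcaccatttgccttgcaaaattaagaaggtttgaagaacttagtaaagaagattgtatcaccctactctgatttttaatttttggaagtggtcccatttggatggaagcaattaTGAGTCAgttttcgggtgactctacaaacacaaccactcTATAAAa
Mmp10 (chr9:7502092-7502341): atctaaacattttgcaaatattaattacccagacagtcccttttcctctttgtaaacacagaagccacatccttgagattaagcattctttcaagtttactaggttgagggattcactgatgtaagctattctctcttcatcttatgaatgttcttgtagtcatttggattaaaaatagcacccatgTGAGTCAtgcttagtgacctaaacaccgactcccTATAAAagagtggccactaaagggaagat
Mmp13 (chr9:7272264-7272513): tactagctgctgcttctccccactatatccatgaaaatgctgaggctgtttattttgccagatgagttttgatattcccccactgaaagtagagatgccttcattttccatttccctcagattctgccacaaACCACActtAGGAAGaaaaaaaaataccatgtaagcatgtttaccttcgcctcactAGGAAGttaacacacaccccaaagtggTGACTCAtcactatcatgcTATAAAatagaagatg
Mmp12 (chr9:7344147-7344396): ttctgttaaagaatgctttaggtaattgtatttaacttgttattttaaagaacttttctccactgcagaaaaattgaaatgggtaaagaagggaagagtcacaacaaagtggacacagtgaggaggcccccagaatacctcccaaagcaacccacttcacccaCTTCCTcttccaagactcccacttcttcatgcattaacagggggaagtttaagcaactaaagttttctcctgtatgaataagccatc
The windows of Mmp3, Mmp10 and Mmp13 each hold 1 AP-1 match followed by 1 TATA match, and that of Mmp12 holds neither. The AP-1 match lies 46 to 40 bases before the start in Mmp3, 63 to 57 in Mmp10 and 35 to 29 in Mmp13. The TATA match lies 7 to 2 bases before the start in Mmp3, 29 to 24 in Mmp10 and 16 to 11 in Mmp13. These distances depend on the listed RefSeq starts, which lie at unlike distances from the TATA match. AP-1 letters occur in 6.75% of the 32851 promoter windows of that length in the RefSeq table, TATAAA in 7.59%, PEA3 in 29.5% and RUNX in 14%. Mmp13 also holds 2 PEA3 matches and 1 RUNX match, Mmp3 and Mmp12 hold 1 PEA3 match each, and Mmp12 holds a match to the NF-kB motif, which 7.25% of windows hold. The windows of Mmp11 and Mmp14, also in the table, hold no AP-1 and no TATA match. The promoters with an AP-1 match belonged to 2 genes that rose (Mmp3 and Mmp10) and to Mmp13, which did not pass as reported. With GC offsets Mmp13 was called higher (log2 fold change 0.60, edgeR adjusted p = 0.0049). The promoter of Mmp12, which rose, held no AP-1 match. The part of these elements in the results was not tested. A match of letters is a description and not a binding site.

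Mmp3 made up most of the RNA of the 10 members. Of their summed FPKM it took 91.2%, 88.0% and 87.9% with mitochondria, against 84.8%, 84.8% and 84.7% with vehicle. Mmp13 took 5.96%, 9.43% and 9.24% with mitochondria, against 12.1%, 11.8% and 11.8% with vehicle. The summed FPKM of the 10 members was 9665 ± 428 with mitochondria and 6406 ± 665 with vehicle (SD, n = 3 each), and they took 1.95% to 2.10% of all counts with mitochondria and 1.3% to 1.55% with vehicle. The sum therefore mostly follows Mmp3.

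Ratios within a library do not depend on a scaling factor per library, though they can move with base composition, and 5 were compared. The FPKM ratio of Mmp3 to its inhibitor Timp1 was 7.45, 7.16 and 7.11 with mitochondria, against 5.35, 4.52 and 5.03 with vehicle. The groups did not overlap, and the mean log2 ratio differed by 0.55 (exact two-sided permutation test, p = 0.10, the smallest p that 3 libraries against 3 allow; 0.167 adjusted over the 5 ratios). The ratio of Mmp13 to Timp1 was 0.486, 0.768 and 0.747 with mitochondria, against 0.766, 0.626 and 0.698 with vehicle, and overlapped (difference in mean log2 ratio -0.09, exact permutation p = 0.9). The ratio of Mmp13 to Mmp3 was 0.0653, 0.107 and 0.105 with mitochondria, against 0.143, 0.139 and 0.139 with vehicle (difference -0.64, exact permutation p = 0.10, adjusted 0.167). Mmp13 relative to Mmp3 was thus lower in all 3 mitochondria libraries, with a difference of -0.40 without mitochondria replicate 1. With GC offsets the log2 fold changes were 0.60 for Mmp13, 0.94 for Mmp3 and 0.10 for Timp1, so Mmp13 stayed below Mmp3 by a smaller margin and stood above Timp1. The ratio of Mmp2 to Timp2 was 0.364, 0.364 and 0.353 with mitochondria, against 0.327, 0.327 and 0.336 with vehicle (difference 0.13, exact permutation p = 0.10, adjusted 0.167). The ratio of Mmp14 to Timp2 was 0.106, 0.113 and 0.1195 with mitochondria, against 0.122, 0.116 and 0.122 with vehicle, and overlapped (difference -0.09, exact permutation p = 0.2, adjusted 0.25). With 3 libraries a group this test cannot reach 0.05, so none of the 5 differences could pass.

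**Figure D4:**
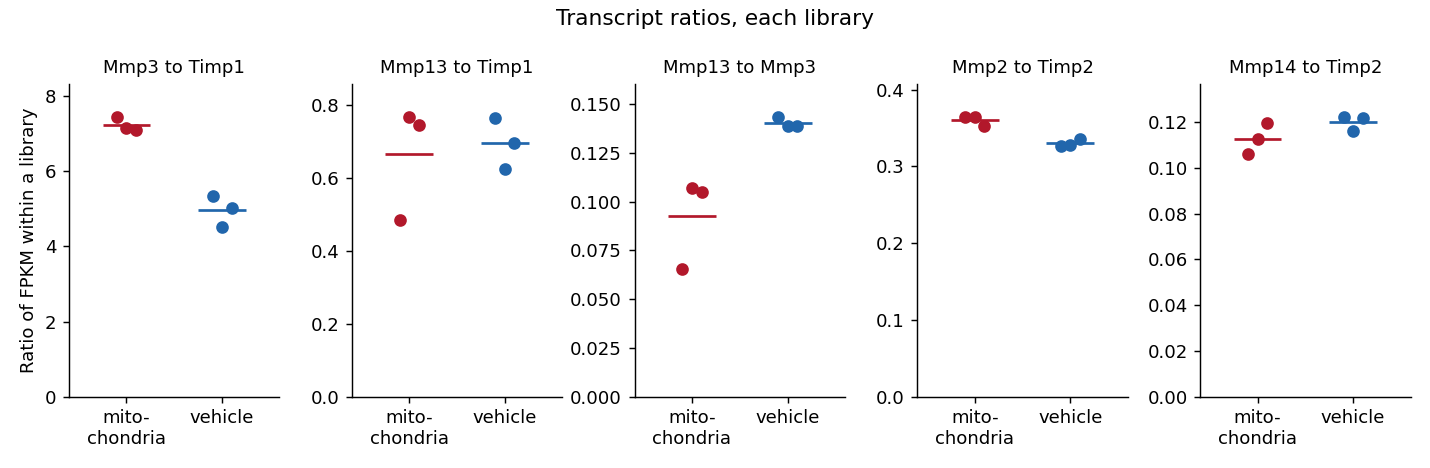
FPKM ratios within each library for 5 pairs of genes, mitochondria (red) left of vehicle (blue), with a bar at each group's mean and axes starting at 0. The groups are apart for Mmp3 to Timp1, Mmp13 to Mmp3 and Mmp2 to Timp2, and overlap for Mmp13 to Timp1 and Mmp14 to Timp2.

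Of 13 further matrix metalloproteinases listed, 10 were in the table and 8 could be tested: 0 were higher and 1 was lower in edgeR (also at an unadjusted p under 0.05 and with DESeq2), and Mmp7, Mmp20 and Mmp21 were not analysed here. The one that fell was Mmp23, with 26.0, 23.2 and 27.2 CPM with mitochondria, against 29.5, 40.8 and 42.0 CPM with vehicle (log2 fold change -0.56 ± 0.15, edgeR adjusted p = 0.042). That call passed in 7 of 16 alternatives, and of the 6 fits with a library left out it passed only without vehicle replicate 1. Mmp28 did not pass, at 11.9 to 15.1 CPM with mitochondria and 10.95 to 12.7 CPM with vehicle (log2 fold change 0.15, edgeR adjusted p = 0.51). The others that did not pass were low, with no library above 2.29 CPM: Mmp15 (log2 fold change -0.10), Mmp17 (0.18), Mmp8 (-0.06), Mmp1b (0.25), Mmp24 (0.03) and Mmp27 (0.85). Mmp1a, an interstitial collagenase, had 0, 7 and 13 counts with mitochondria and 0 in each vehicle library, a few fragments at most, and Mmp25 had 0, 0 and 7 counts with mitochondria and 8, 4 and 4 with vehicle. Mmp23 and Mmp28 were thus the only further Mmp genes in the table above 2.29 CPM in any library.

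Of 8 inhibitors listed, 6 were tested, with 1 higher, 2 lower and a median log2 fold change of -0.33. Among all genes tested, 6.36% were higher and 8.46% lower. Timp3, the inhibitor bound to the matrix that also blocks aggrecanases, fell the most of them. It had 472, 527 and 541 CPM with mitochondria, against 843, 1116 and 1197 CPM with vehicle (log2 fold change -1.04 ± 0.13, edgeR adjusted p = 0.0046). The groups did not overlap, and the call held under all 16 alternatives. Reck, a membrane-anchored inhibitor, also fell (-0.47 ± 0.13, edgeR adjusted p = 0.046), a call that was lost in 9 of 16 alternatives, among them each library left out except vehicle replicate 1. A2m, the protease-trapping alpha-2-macroglobulin, rose, at 129 ± 1.305 CPM with mitochondria and 84.1 ± 19.8 CPM with vehicle (0.62 ± 0.15, edgeR adjusted p = 0.030), but did not pass without mitochondria replicate 2 or 3 or without vehicle replicate 2 or 3. Timp1, whose levels were 1190 ± 53.4 CPM with mitochondria and 1044 ± 65.0 CPM with vehicle, did not pass (0.19 ± 0.08, edgeR adjusted p = 0.15). Timp2, the partner of Mmp14, did not pass either, at 1372 ± 101 CPM with mitochondria and 1560 ± 60.3 CPM with vehicle (-0.19 ± 0.08, edgeR adjusted p = 0.16). Timp2 was called lower with GC offsets (-0.32, edgeR adjusted p = 0.0084) and without mitochondria replicate 1 (-0.25, edgeR adjusted p = 0.028).

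Of 14 genes that activate pro-enzymes or regulate that step, 13 were tested, with a median log2 fold change of 0.19, and 2 were lower. These were the proprotein convertases Pcsk6 (-0.43 ± 0.11, edgeR adjusted p = 0.034) and Pcsk5 (-0.76 ± 0.22, edgeR adjusted p = 0.049). Both calls were lost without mitochondria replicate 3 and without vehicle replicate 2 or 3, that of Pcsk6 also without mitochondria replicate 2 and that of Pcsk5 without mitochondria replicate 1. Of 11 collagen receptors and surface partners, all tested, 2 were higher, 1 lower and the median was 0.07. Over all genes tested, the background for both lists, 6.36% were higher and 8.46% lower. Bsg (CD147, an inducer of metalloproteinases in neighbouring cells) had 6176, 5031 and 5172 CPM with mitochondria, against 3569, 2961 and 2928 CPM with vehicle (0.79 ± 0.11, edgeR adjusted p = 0.0053). Itgb3 was higher as well (1.17 ± 0.25, edgeR adjusted p = 0.020). The collagen receptor Ddr2, known for inducing Mmp13 in chondrocytes, was lower, with 175, 282 and 257 CPM with mitochondria, against 380, 414 and 416 CPM with vehicle (-0.76 ± 0.16, edgeR adjusted p = 0.019). The calls of Itgb3 and Ddr2 were lost without mitochondria replicate 3 and without vehicle replicate 2 or 3, and that of Bsg held on leaving out any 1 library.

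Of 18 transcription factors known to act at Mmp promoters, 17 were tested, with 3 higher, 0 lower in edgeR and a median log2 fold change of 0.31. At an unadjusted p under 0.05, 10 were higher and 1 was lower, and DESeq2 called 5 higher and 1 lower. Among all genes tested, edgeR called 6.36% higher and 8.46% lower, and DESeq2 called 9.64% higher and 12.5% lower. The share of all genes at an unadjusted p under 0.05 is not given here. The 3 that rose in edgeR are AP-1 subunits. The other AP-1 genes of the list, Fos (0.39, edgeR adjusted p = 0.062), Fosb (0.21, 0.64), Fosl2 (0.10, 0.45) and Jun (0.26, 0.13), did not pass. Junb had 223, 190 and 193 CPM with mitochondria, against 146, 91.2 and 101 CPM with vehicle (0.84 ± 0.17, edgeR adjusted p = 0.017). Fosl1 had 84.4, 76.8 and 68.8 CPM with mitochondria, against 56.8, 33.5 and 33.9 CPM with vehicle (0.89 ± 0.20, edgeR adjusted p = 0.024). Jund was at 349, 265 and 264 CPM with mitochondria, against 216, 202 and 214 CPM with vehicle (0.48 ± 0.12, edgeR adjusted p = 0.032). For each of the 3 genes the groups did not overlap, and each call was lost without vehicle replicate 2 or without vehicle replicate 3. Without mitochondria replicate 3 Fosl1 and Jund did not pass, and without vehicle replicate 1 Jund did not. With GC offsets the log2 fold change of Jund was 0.27.

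Of 18 substrates in the matrix, all tested, 1 was higher, 4 were lower and the median was 0.01. Over all genes tested, 6.36% were higher and 8.46% lower. Eln, which encodes elastin, a substrate of Mmp12, had 7.20, 5.12 and 6.16 CPM with mitochondria, against 12.9, 15.4 and 14.6 CPM with vehicle (-1.21 ± 0.17, edgeR adjusted p = 0.0053). Col11a1, a minor fibrillar collagen of cartilage, had 256, 369 and 334 CPM with mitochondria, against 519.7, 619.5 and 703 CPM with vehicle (-0.94 ± 0.15, edgeR adjusted p = 0.0087). The small proteoglycans Fmod (-0.40 ± 0.10, edgeR adjusted p = 0.034) and Lum (-0.54 ± 0.15, edgeR adjusted p = 0.049) were also lower. Eln and Col11a1 passed with any 1 library left out. Fmod and Lum did not pass without mitochondria replicate 2 or 3 or vehicle replicate 2 or 3, nor Lum without vehicle replicate 1. With GC offsets the log2 fold change of Lum was -0.08 (edgeR adjusted p = 0.55). Acan was higher (0.54 ± 0.15, edgeR adjusted p = 0.041), but that call was lost on leaving out any 1 library. Osteocyte markers were looked for because the series title names osteocytes: the 5 in the table summed to 243.9 to 270.5 CPM with mitochondria and 153 to 235 CPM with vehicle. Nearly all of that was Pdpn, which was above the vehicle range in each mitochondria library but did not pass in edgeR (log2 fold change 0.52, adjusted p = 0.064), while DESeq2 called 1 of the 2 tested markers higher. The osteocyte genes Dmp1, Sost and Phex were under 1 CPM in every library, with Dmp1 and Sost at 0 in all 3 mitochondria libraries. Fgf23, the other tested marker, had 0.295, 0.516 and 1.07 CPM with mitochondria, against 0.261, 0.119 and 0.360 CPM with vehicle. Its groups overlapped and it did not pass (log2 fold change 1.34, edgeR adjusted p = 0.25).

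For each member that passed, the 3 genes nearest to it in centred log2 CPM over the 6 libraries were found among 11523 genes with a mean FPKM of at least 1. The measure is the root mean square distance on the log2 scale, over 6 libraries that share the same groups and depth, and no test is attached. Mmp3 was nearest to Bin1 (0.05), Pxn (0.06) and Ptgfrn (0.06). Mmp9 was nearest to Bst2 (0.11), Ccl5 (0.14) and Lgals3bp (0.16). Mmp10 was nearest to Trdj1 (0.13), Havcr2 (0.15) and Gm21399 (0.16), and Mmp12 to Nostrin (0.13), Stfa3 (0.14) and Gm21399 (0.15). Gm21399 thus stood near both Mmp10 and Mmp12, the members in which vehicle replicate 1 lay well above the other vehicle libraries. Mmp14 was nearest to Map1a (0.03), Prr14 (0.04) and Fbn1 (0.04), and Mmp16 to Jade1 (0.04), Zfp52 (0.05) and Ppig (0.06).

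**Figure D5:**
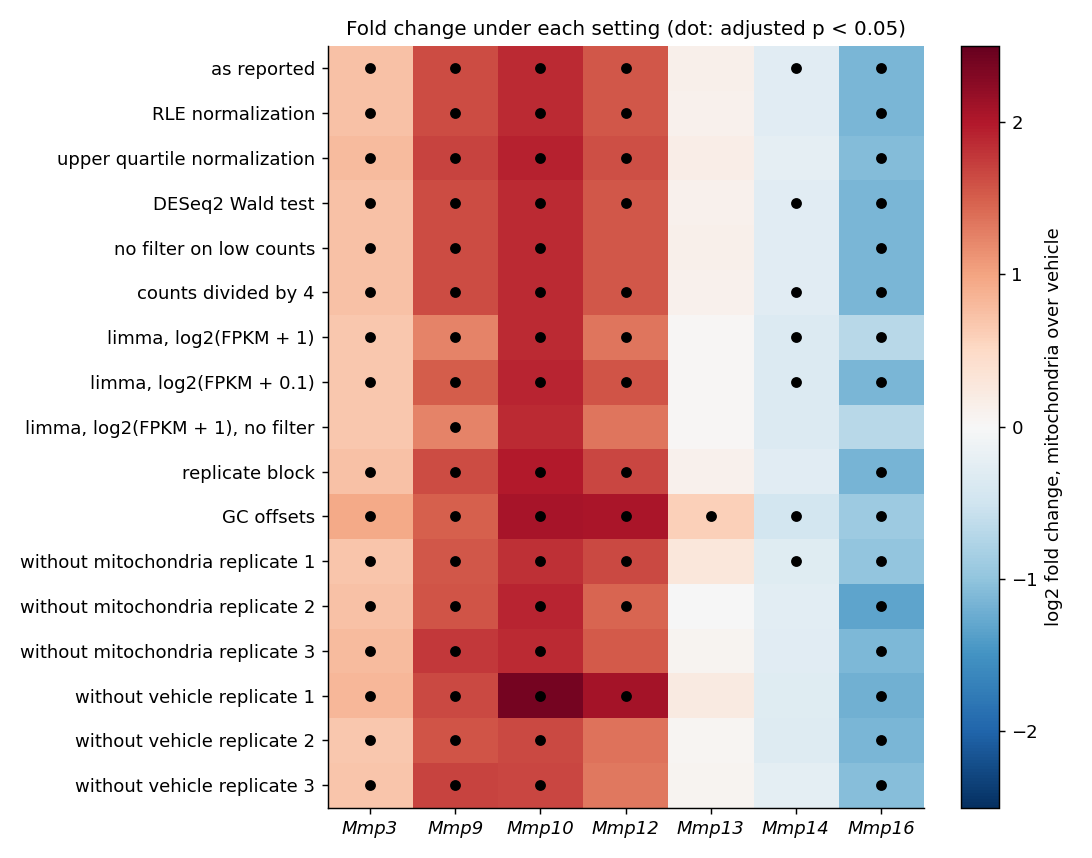
Colour gives the log2 fold change, mitochondria over vehicle, of 7 members (columns) as reported and under 16 alternative settings (other rows), and a dot marks an adjusted p under 0.05. Mmp9 has a dot in every row, Mmp3, Mmp10 and Mmp16 lose it with limma on unfiltered FPKM, Mmp13 has one with GC offsets, and Mmp12 and Mmp14 lose theirs in several rows.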

How the data were processed

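The authors deposited 1 table with FPKM (fragments per kilobase of transcript at a common depth) and expected counts, which are whole numbers without normalization, for each gene and library. The build mm8 and the tools Bowtie 0.12.2, HISAT2 2.0 and StringTie 1.3.0 are named, without roles, per the submitters' processing notes. Positions are read as GRCm38 because, against GENCODE, 28732 of 28812 identifiers were found and 25914 had the same start and end. Members and gene lists were chosen with earlier results of these data known.

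Deposited counts were fitted for all 6 libraries without division by 4. The fit used R 4.3.3 with edgeR 4.0.16 (TMM, filterByExpr with a minimum count of 10, quasi-likelihood, group as the only term, two-sided). P-values were adjusted over all 17290 genes that passed, and called under 0.05. The SE comes from the F statistic and the estimate, so it holds no information beyond the p-value. All fold changes have mitochondria on top. CPM uses TMM factors. Of further lists, up to 4 genes a direction past the threshold were named by smallest adjusted p, with Timp1 to Timp3 and each tested Mmp always named. The 7 marker lists were summed in CPM. Transcript words, GC content and promoters came from the references, with 6 of 10 members in the RefSeq promoter table. Alternatives used limma 3.58.1, DESeq2 1.42.0, other scalings and filters, counts divided by 4, GC offsets (loess span 0.5), a replicate block and each library left out. The edgeR step was tested on simulated data. One result of the list on activation of pro-enzymes is not reported here.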

Additional observations from a re-analysis of the deposited data

How the results depend on the processing

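With 3 libraries a group and no record of what a replicate was, calls near the threshold moved with the setting, and a missed threshold does not show equality. The count of lower members was 2 as reported and 1 (Mmp16) with RLE scaling, with upper quartile scaling, without the count filter and with the replicate block. With limma on unfiltered log2(FPKM + 1), over 26043 genes, 1 member was higher (Mmp9) and 0 were lower (3 and 2 at an unadjusted p under 0.05). There the limma adjusted p was 0.23 for Mmp3, 0.053 for Mmp10, 0.068 for Mmp12, 0.051 for Mmp14 and 0.053 for Mmp16. Leaving out each library gave 3 to 4 higher and 1 to 2 lower members. Dividing the counts by 4 left 4 members higher and 2 lower, and called 1264 higher and 1683 lower among 14527 genes. Among all genes, 1099 were higher and 1463 lower as reported, 1667 higher and 2164 lower with DESeq2, 357 and 507 without the count filter, 161 and 301 with limma on unfiltered FPKM, and 1652 and 1651 with GC offsets. Leaving out each library gave 130 to 1086 higher and 310 to 1694 lower genes, the lowest counts being 130 higher without vehicle replicate 2 and 310 lower without vehicle replicate 3.

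Libraries with the same replicate number had correlations of 0.037, 0.0091 and -0.015 between their deviations from the group means. Other pairs had correlations of -0.031 to 0.026. With 3 libraries a group, these values cannot settle whether the libraries were paired. With the replicate block 898 genes were higher and 1386 lower, and of the 6 called members Mmp14 did not pass. The difference in the Mmp13 to Timp1 log2 ratio ranged between -0.20 and 0.13 on leaving out a library, with 0.13 without mitochondria replicate 1. Signs turned only for genes that had not passed: Mmp2 with upper quartile scaling (0.004), Mmp11 (-0.013), Mmp28 (-0.033), Mmp8 (0.26) and Mmp24 (-0.084) with GC offsets, and Mmp24 with unfiltered limma (-0.007) and the block (-0.05). On leaving out a library the range was -0.017 to 0.29 for Mmp13, -0.28 to 0.27 for Mmp8, -0.35 to 0.36 for Mmp24, -0.074 to 0.64 for Mmp1b and -0.33 to 0.032 for Mmp15. Why these values moved was not tested. Of 577 values of single genes, 441 kept their sign and side of the threshold, 117 lost the threshold, 3 gained it and 16 changed sign. Only genes called as reported could lose the threshold, and the 441 include values of uncalled genes that again did not pass. Among called genes alone, the share that lost the threshold is therefore larger than 117 of 577.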
